A study of Mus musculus with 12 samples.

Results

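The 10 genes described here encode keratins of the basal layer, the bulge and the companion layer of the hair follicle: Krt5, Krt14, Krt15, Krt24, Krt6a, Krt6b, Krt16, Krt17, Krt75 and Krt79. They were chosen by name, and all 10 were found among the 37931 gene names that the 2 deposited count tables share, of 38830 names in either table. Stem cells of the hair follicle were sorted from dissected skin of the back as cells that carried H2BGFP, CD34 and CD49f and lacked Sca-1. Knockout (KO) mice carried K14-H2BGFP, K14Cre and Foxc1 fl/fl, and wild-type (WT) controls carried K14-H2BGFP and Foxc1 fl/fl without the Cre, so the floxed alleles and the fluorescent histone were common to all 12 libraries. Both transgenes are driven by the promoter of Krt14, itself one of the 10 genes, so the cells of every library were in part selected by the activity of a keratin promoter, and the Cre acts in all keratin 14 lineages of the skin and not in the stem cells alone. The anagen table held 2 KO libraries titled with day 29 and day 31 and 3 WT libraries titled with days 29, 30 and 31. Early telogen was represented by KO replicates 1, 2, 3 and 5 and by WT replicates 1, 3 and 4, all with an age label of 47 days. The titles and age labels disagree for anagen WT replicate 3 (day 31 against 43) and early telogen KO replicate 5 (day 43 against 47).

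Keratins are the intermediate filament proteins of epithelial cells, and each filament is built from pairs of 1 type I and 1 type II chain. Krt5 (type II) and Krt14 (type I) form the filaments of basal keratinocytes, and Krt15, a type I keratin, is the classical marker of the resting bulge, where hair follicle stem cells live. Krt6a, Krt16 and Krt17 are known for the companion layer and the inner bulge of the follicle and for wounded epidermis, Krt75 for the companion layer, and Krt79 for the upper follicle and its opening. Krt24 is a type I keratin known to be expressed in bulge cells. Anagen is the growth phase of the hair cycle and telogen the resting phase.

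In the mm10 genome (GRCm38, GENCODE M21 gene models) the type I genes lie on chromosome 11 and the type II genes on chromosome 15, all on the minus strand. Krt15 (100131758 to 100135928), Krt14 (100203162 to 100207548), Krt16 (100246091 to 100248902) and Krt17 (100256217 to 100261029) are near neighbours on chromosome 11, and Krt24 (99279959 to 99285262) lies apart from them. On chromosome 15 the order is Krt75 (101563345 to 101573904), Krt6b (101676023 to 101680287), Krt6a (101689910 to 101694307), Krt5 (101707070 to 101712898) and Krt79 (101929332 to 101940324). The longest coding transcript has 8 exons in each type I gene and 9 exons in each type II gene.

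Some of these genes are close copies, and the anagen table tallies reads placed at more than 1 position apart from the genes. Krt6a and Krt6b are the closest pair, with 97.8% identity over 1659 aligned coding bases and an identical run of 280 bases. The 60 coding bases in which they differ most are shown because they tell the copies apart, and the capitals mark the 10 differing bases (coding bases 817 to 876 in both, counted from the A of the start codon).
Krt6a: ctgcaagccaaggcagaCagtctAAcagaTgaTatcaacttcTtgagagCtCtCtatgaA
Krt6b: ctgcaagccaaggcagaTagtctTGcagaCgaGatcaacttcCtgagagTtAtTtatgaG
The first 60 bases of the identical run (coding bases 34 to 93) show the opposite case, letters that are the same in both genes.
Krt6a and Krt6b: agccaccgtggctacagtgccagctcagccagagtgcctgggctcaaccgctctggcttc
Of all windows of 50 bases in the annotated transcripts, 45.7% of Krt6a and 50.1% of Krt6b also occur in the transcripts of another gene, mostly of each other. Krt16 shares 37.6% of its windows, of which 25.2% of all its windows are shared with Gm11597 and 12.4% with Krt14. The shares are 13.9% for Krt14, 8.52% for Krt5, 4.0% for Krt17 and 0.640% for Krt15, and they are 0 for Krt24, Krt75 and Krt79. The values of Krt6a, Krt6b and Krt16 are therefore uncertain, and the read length is not given in the sources used here. In anagen 32.8% and 31.1% of all tallied alignments of KO replicates 1 and 2 were not unique, against 20.1% to 25.8% in WT, and the part of this in the keratin differences was not tested.

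**Figure D1:**
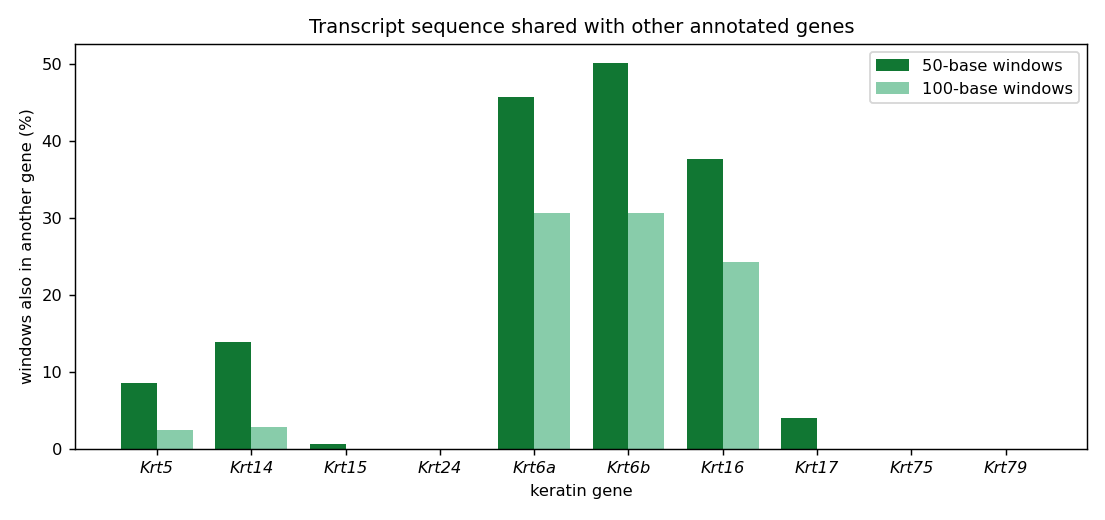
Percent of 50-base and 100-base windows of each keratin's annotated transcripts (y axis) that also occur in transcripts of another gene, for the 10 keratins (x axis). Krt6a, Krt6b and Krt16 stand at 24.3% or more for both window lengths, and Krt24, Krt75 and Krt79 stand at 0.

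RefSeq promoter windows (GRCm38.p6) were at hand for 5 of the 10 genes, namely Krt5, Krt14, Krt24, Krt75 and Krt79. The Krt14 window belongs to a start inside the gene. Its 150 bases before that start (100206031 to 100206180) lie within the gene model given above (100203162 to 100207548). The bases before the start of that Krt14 gene model were therefore not searched. The 150 bases before the start are printed for Krt24 and Krt75, the genes of the list with the largest KO differences in anagen and in early telogen, and for Krt5, which differed least in anagen. Capitals mark letters of the TATA type, ATAAAAG or TATATAA on the forward strand, chosen after the sequences were seen.
Krt24, chr11:99285263-99285412, minus strand: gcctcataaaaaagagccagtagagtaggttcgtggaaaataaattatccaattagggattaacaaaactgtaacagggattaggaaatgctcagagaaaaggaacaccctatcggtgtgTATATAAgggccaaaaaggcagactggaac
Krt75, chr15:101573905-101574054, minus strand: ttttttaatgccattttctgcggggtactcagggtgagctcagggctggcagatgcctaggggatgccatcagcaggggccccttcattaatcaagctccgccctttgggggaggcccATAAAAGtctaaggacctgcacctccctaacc
Krt5, chr15:101712906-101713055, minus strand: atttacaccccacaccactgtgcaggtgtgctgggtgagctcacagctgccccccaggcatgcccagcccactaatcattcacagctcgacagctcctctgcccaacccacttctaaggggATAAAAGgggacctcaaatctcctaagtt
The marked letters start at position -30 in Krt24, -32 in Krt75 and -29 in Krt5. Over 32851 promoter windows of 300 bases, 3.38% hold ATAAAAG and 2.20% hold TATATAA on the forward strand. The forkhead core GTAAACA, its variant GTAAATA and a further variant ATAAACA were searched on both strands and occur in none of the 5 keratin windows, against 10.6% of all windows with any of them, which says only that these letters are not in these windows.

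The depth of a library, summed over genes, lay between 29025553 and 54482469 counts in anagen and was 2662083 to 11821916 in early telogen. Levels are given as CPM, the counts scaled to a common library total, and levels of different genes are compared as CPM per kb of annotated exon. The targeted gene was low in every KO library, with Foxc1 at 0.206 and 0.276 CPM in anagen KO against 34.6 CPM or more in anagen WT, and at 3.11 CPM or less in early telogen KO against 43.8 CPM or more in early telogen WT. Of the bulge markers listed, 12 were in both tables. They summed to 2515 and 2792 CPM in anagen KO and 2816 to 3621 CPM in anagen WT. The sums were 2825 to 3538 CPM in early telogen KO and 3583 to 4541 CPM in early telogen WT. The KO sums lay below the WT sums in each stage, by little in anagen, but the markers were divided. Of 13 tested in anagen, 4 had positive and 9 negative log2 fold changes, and none passed the edgeR test, beside 0% of all genes. Of 12 tested in early telogen, 1 was positive and 11 negative, and 1 was called lower, beside 0.457% of all genes. In early telogen KO replicate 2 the 10 epidermal markers summed to 6979 CPM and the 6 fibroblast markers to 4975 CPM, against highest sums of 4131 and 1505 CPM in the other early telogen libraries. In early telogen WT replicate 3 the 8 upper follicle markers, Krt79 among them, summed to 120 CPM, against 261 CPM or more in the other early telogen libraries. Its sums of epidermal, sebaceous, fibroblast, endothelial and immune markers were also the lowest of early telogen. Its sums of bulge, melanocyte, and inner root sheath and hair shaft markers were not. The labels do not say that libraries came from separate animals, so p-values measure the spread between these samples, and in sorted bulk RNA fewer cells of a type and less RNA per cell cannot be told apart.

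The share of all counts held by the 10 keratins together overlapped between KO and WT within each stage, while the make-up of this pool varied. The share was 3.22% and 3.12% in anagen KO, 3.04% to 3.54% in anagen WT, 3.22% to 3.83% in early telogen KO and 3.48% to 4.16% in early telogen WT. Per kb of exon, the early telogen WT pool was led by Krt14 (5225 ± 241 CPM per kb, SD, n = 3), Krt15 (5080 ± 815) and Krt5 (4860 ± 877), which did not differ beyond their spread. Krt17 (2039 ± 510) and Krt6a (1745 ± 289) followed and overlapped each other, then Krt16 (696 ± 56.4) and Krt24 (210 ± 13.1). Krt79 (20.4 ± 17.8), Krt75 (4.0 ± 0.913) and Krt6b (1.0 ± 0.485) were lowest.

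The order was another in anagen KO, where Krt17 (5649 ± 1775 CPM per kb, SD, n = 2) and Krt5 (5436 ± 204) stood at the top with Krt14 (4325 ± 688), and Krt15 was at 975 ± 375. Krt15 made up 4.02% and 7.43% of the pool per kb in the 2 anagen KO libraries. In the other 10 libraries it made up 15.9% to 30.7%. Krt17 made up 39.1% and 26.3% in anagen KO and 12.6% to 26.6% in anagen WT, so anagen KO replicate 2 lay just within the WT range. The ratio of Krt15 to Krt14 per kb was 0.185 and 0.258 in anagen KO and 0.685, 1.48 and 0.921 in anagen WT. In early telogen this ratio was 0.676 to 1.42 in KO and 0.788 to 1.10 in WT. The ratio of Krt5 to Krt14, the basal pair, lay between 0.697 and 1.64 in all 12 libraries, with no separation of KO from WT in either stage.

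**Figure D2:**
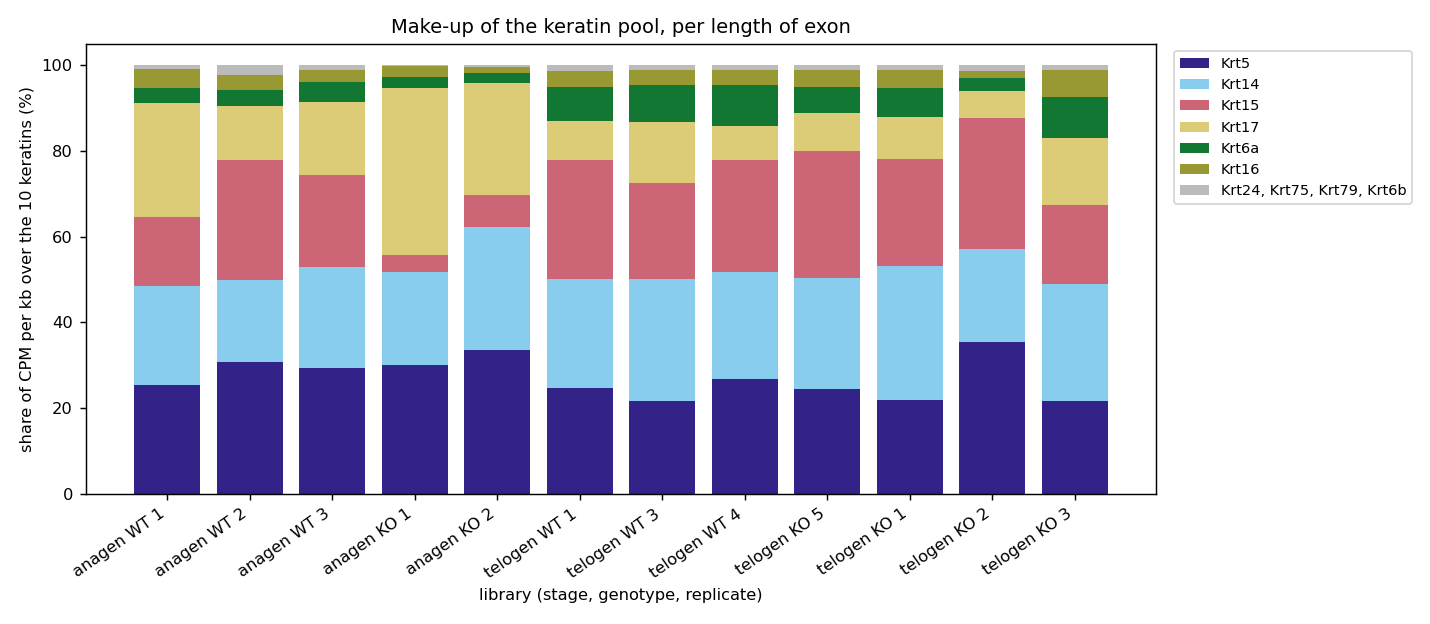
Stacked bars give each keratin's percent of the summed CPM per kb of the 10 keratins (y axis) in each of the 12 libraries (x axis). The Krt15 part is 4.02% and 7.43% in the 2 anagen KO libraries and 15.9% or more in every other library.

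The anagen comparison asks which keratins differ between KO and WT stem cells during hair growth. Both bulge keratins, Krt15 and Krt24, stood far lower in KO. Krt15 was at 1254 and 2192 CPM in KO replicates 1 and 2 and at 4641, 9289 and 7078 CPM in WT replicates 1 to 3. Both KO libraries lay below all WT libraries, and the log2 fold change was -2.12 ± 0.41 (SE). Krt24 was at 14.6 and 15.6 CPM in KO and at 167, 659 and 252 CPM in WT. The 2 KO libraries were almost equal, the WT libraries were spread widely, and the log2 fold change was -4.67 ± 0.70. Neither passed the test across all genes in the 5 anagen libraries, with an edgeR adjusted p of 0.156 for Krt15 and 0.109 for Krt24, and neither did any other gene, so 0 of 10 keratins were called beside a background of 0% of 14409 genes (10.1% at an unadjusted p under 0.05).

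When all 12 libraries were fitted together and shared 1 estimate of the spread, Krt15 (edgeR adjusted p = 0.0101) and Krt24 (0.00105) were the keratins called lower in anagen KO, 2 of 10 beside 1.11% of 13193 genes called lower. DESeq2 on the 5 anagen libraries called 4 of 10 lower, Krt15 (adjusted p = 1.13e-05), Krt24 (4.49e-15), Krt6a (0.0336) and Krt75 (0.0385), beside 2.91% of 14030 genes. With the postnatal day of the title as a replicate block, Krt15 (-1.87, edgeR adjusted p = 0.00883) and Krt24 (-3.84, edgeR adjusted p = 0.0015) were called lower, 2 of 10 beside 1.44% of genes. That fit had 1 residual degree of freedom, and WT replicate 3, in the day 31 block, has an age label of 43 days. With the sex label as a covariate the log2 fold changes were -1.51 for Krt15 and -3.54 for Krt24 and neither was called. By their labels both KO libraries were female, and WT replicates 2 and 3 male. Without WT replicate 1 Krt24 was called lower (-5.02, edgeR adjusted p = 0.0232). Cd34, the bulge marker used in the gate, was at 254 ± 32.9 CPM in anagen KO (n = 2) and 552 ± 203 CPM in anagen WT (n = 3) in the same libraries. The 10 epidermal markers summed to 750 and 1265 CPM in anagen KO and 1715 to 2458 CPM in anagen WT, with none at 0. Sbsn held the largest part of this gap, with a mean of 385 CPM for KO (n = 2) against 1122 for WT (n = 3). Of the 10 log2 fold changes 8 were negative and 2 positive, and none passed. The positive ones were Ivl (mean 131 CPM for KO against 56.9) and Dsg1a (74.8 against 62.5). The 6 melanocyte markers summed to 26.5 and 31.3 CPM in KO, against 58.6 to 140 CPM in WT. The part of these markers and of the Cd34 level in the keratin values was not tested.

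The companion layer and inner bulge keratins were divided in anagen. Krt6a was at 1052 and 945 CPM in KO and at 1420, 1729 and 2144 CPM in WT, and its groups did not overlap (log2 fold change -0.91 ± 0.26). Krt16, a type I partner of Krt6a, was at 686 and 358 CPM in KO and at 1163, 992 and 828 CPM in WT, again without overlap (-1.02 ± 0.33), and its log2 fold change was -1.58 without KO replicate 1 and -0.63 without KO replicate 2. Krt75 was at 10.9 and 18.6 CPM in KO and at 28.5, 91.7 and 25.9 CPM in WT, without overlap (-1.82 ± 0.64). WT replicate 2 held most Krt75, and without it the log2 fold change was -0.97. With Krt15 and Krt24, 5 of 10 keratins lay lower in KO without overlap, beside 11.2% of the 14409 genes, and 0 of 10 lay higher without overlap, beside 18.5%. Krt17 pointed the other way, at 10708 and 6814 CPM in KO against 6818, 3648 and 4901 CPM in WT (0.69 ± 0.34), and KO replicate 2 overlapped WT replicate 1. Without KO replicate 1 the Krt17 value was 0.31. None of these 4 passed (edgeR adjusted p of 0.309 to 0.560).

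The basal pair and the remaining keratins showed little difference in anagen. Krt5 was at 11626 and 12260 CPM in KO and at 9197, 12651 and 12021 CPM in WT (log2 fold change -0.01 ± 0.26). Krt14 was at 6749 and 8458 CPM in KO and at 6742, 6231 and 7650 CPM in WT (0.06 ± 0.24). Both groups of both genes overlapped, and the sign of each difference turned under other settings. Krt79 of the upper follicle was at 133 and 179 CPM in KO and at 184, 153 and 183 CPM in WT (-0.24 ± 0.22). Krt6b stood at 1.41 to 1.44 CPM in KO and 0.991 to 1.63 CPM in WT (log2 fold change 0.03 ± 0.45), from 41 to 56 counts a library. Over the 10 keratins the median log2 fold change in anagen was -0.58, beside 0.02 over all genes tested.

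**Figure D3:**
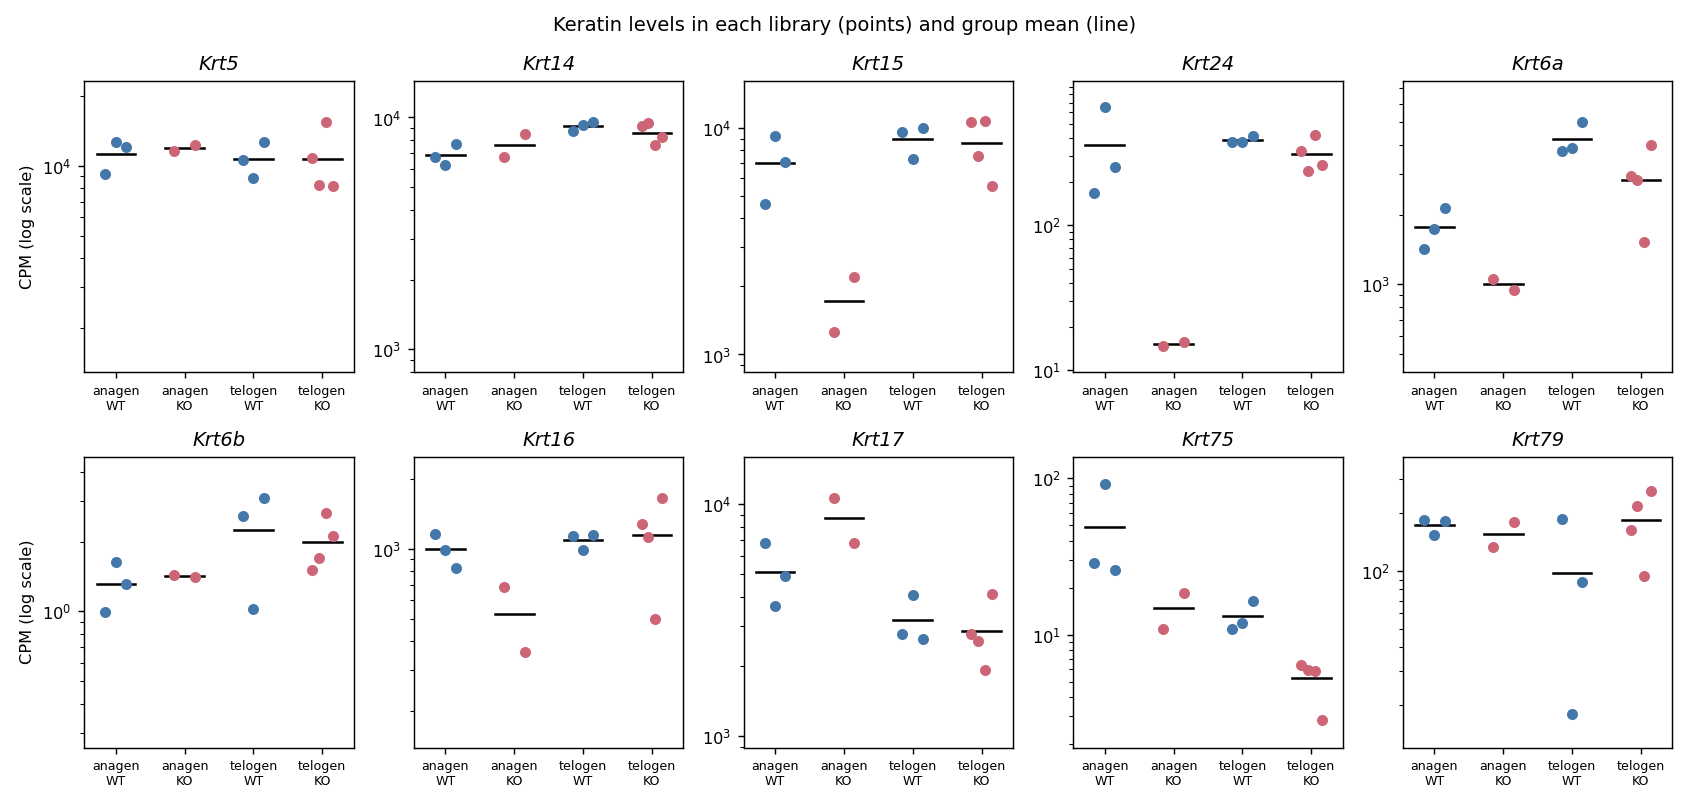
CPM of each keratin (y axis, log scale) in every library (points) with the group mean (line), for KO and WT in anagen and early telogen (x axis). Krt15 and Krt24 are low in the 2 anagen KO libraries (1254 and 2192 CPM, 14.6 and 15.6 CPM) and in early telogen their KO libraries lie at 5578 to 10789 CPM and 237 to 419 CPM. Krt75 lies lower in every KO than in every WT library of the same stage.

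In early telogen, the resting phase, the bulge keratin Krt15 stood at similar levels in KO and WT. Krt24 lay lower in most KO libraries (log2 fold change -0.51 ± 0.20) without passing, and Krt75 differed most. Krt75 was at 5.92, 5.86, 2.83 and 6.39 CPM in KO replicates 1, 2, 3 and 5 and at 10.9, 11.9 and 16.5 CPM in WT replicates 1, 3 and 4. The groups did not overlap, which held for 1 of 10 keratins, beside 3.37% of 12030 genes lower and 9.75% higher without overlap. The log2 fold change was -1.52 ± 0.33, and the edgeR adjusted p of 0.0505 just missed the threshold, so 0 of 10 keratins were called beside 0.956% of genes in either direction (12% at an unadjusted p under 0.05, where Krt24 and Krt75 lay). Krt75 was called lower by DESeq2 (adjusted p = 0.00425), with genes of low counts kept in (edgeR adjusted p = 0.00608) and with size factors of the RLE kind (edgeR adjusted p = 0.0482), and not with library totals alone (edgeR adjusted p = 0.118). Its counts were few, 17 to 70 in KO and 101 to 128 in WT libraries. The 15 inner root sheath and hair shaft markers summed to 183 to 250 CPM in KO libraries, against 121 to 142 for WT. Of these markers 3 to 10 were at 0 in KO and 8 to 11 in WT libraries. Most of both sums was 1 gene, Gata3, with a mean of 172.9 CPM for KO (n = 4) against 102.5 for WT (n = 3). Of the 5 markers tested, 4 had positive and 1 a negative log2 fold change, and none passed. The part of these markers in the Krt75 result was not tested.

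Krt15 was at 7565, 10789, 5578 and 10640 CPM in early telogen KO replicates 1, 2, 3 and 5 and at 9615, 7328 and 9987 CPM in WT, a log2 fold change of -0.23 ± 0.25 with wholly overlapping groups. Krt24 was at 237, 419, 260 and 327 CPM in KO and at 374, 374 and 416 CPM in WT (-0.51 ± 0.20, edgeR adjusted p = 0.311), and KO replicate 2 lay above all WT libraries while the other 3 lay below them. The level of Cd34 in these libraries was 372 ± 30.6 CPM for KO (n = 4) and 760 ± 102 CPM for WT (n = 3). Krt6a was at 2833, 1520, 3980 and 2939 CPM in KO and at 3742, 3892 and 5022 CPM in WT (-0.71 ± 0.33, edgeR adjusted p = 0.416). KO replicate 2, the library with most epidermal and fibroblast marker RNA, was the lowest for Krt6a, and without it the log2 fold change was -0.47.

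The remaining keratins differed by less than the spread between libraries in early telogen. Krt16 was at 1128, 500, 1665 and 1277 CPM in KO and at 1138, 988 and 1143 CPM in WT (-0.05 ± 0.37), and Krt17 at 2582, 1941, 4104 and 2763 CPM in KO and 2774, 4073 and 2639 CPM in WT (-0.30 ± 0.31). Krt5 was at 8243, 15477, 8151 and 10858 CPM in KO and at 10548, 8818 and 12665 CPM in WT (-0.19 ± 0.25), with KO replicate 2 highest. Krt14 ranged from 7572 to 9460 CPM in KO and from 8734 to 9574 CPM in WT (-0.25 ± 0.23). Krt79 was at 217, 94.2, 261 and 163 CPM in KO and at 186, 18.0 and 87.1 CPM in WT (0.84 ± 0.78). WT replicate 3, the library low in upper follicle markers and in those of several other cell types, was lowest. Without it the Krt79 log2 fold change was 0.35, and without WT replicate 1 it was 1.68. Krt6b had 4 to 30 counts a library. Over the 10 keratins the median log2 fold change was -0.27, beside 0.03 over all genes tested. Scaling by library totals alone moved the median of all genes to 0.21 and turned the signs of Krt5 and Krt16.

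Whether the KO effect differed between the stages was tested in 1 fit of the 12 libraries, and Krt24 was the keratin that passed. Its KO log2 fold change was higher by 4.15 ± 0.62 in early telogen than in anagen (edgeR adjusted p = 0.0229), 1 of 10 keratins beside 0.144% of 13193 genes in either direction (0.129% higher). Both anagen KO libraries stood at or below 15.6 CPM, and the 10 others at 167 CPM or more. With each library left out in turn the difference was 3.34 to 4.49, but its call rested on several libraries. The edgeR adjusted p was 0.140 without anagen KO replicate 1, 0.174 without anagen KO replicate 2, 0.0572 without early telogen KO replicate 5, 0.0555 without KO replicate 3, and 0.0624, 0.0809 and 0.0655 without early telogen WT replicates 1, 3 and 4. For Krt15 the difference was 1.86 ± 0.46 (edgeR adjusted p = 0.200), and it was called by DESeq2 (adjusted p = 0.0055). For Krt75 it was 0.27 ± 0.67 and for Krt6a 0.18 ± 0.49, both within their error, and for Krt17 -1.01 ± 0.51.

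**Figure D4:**
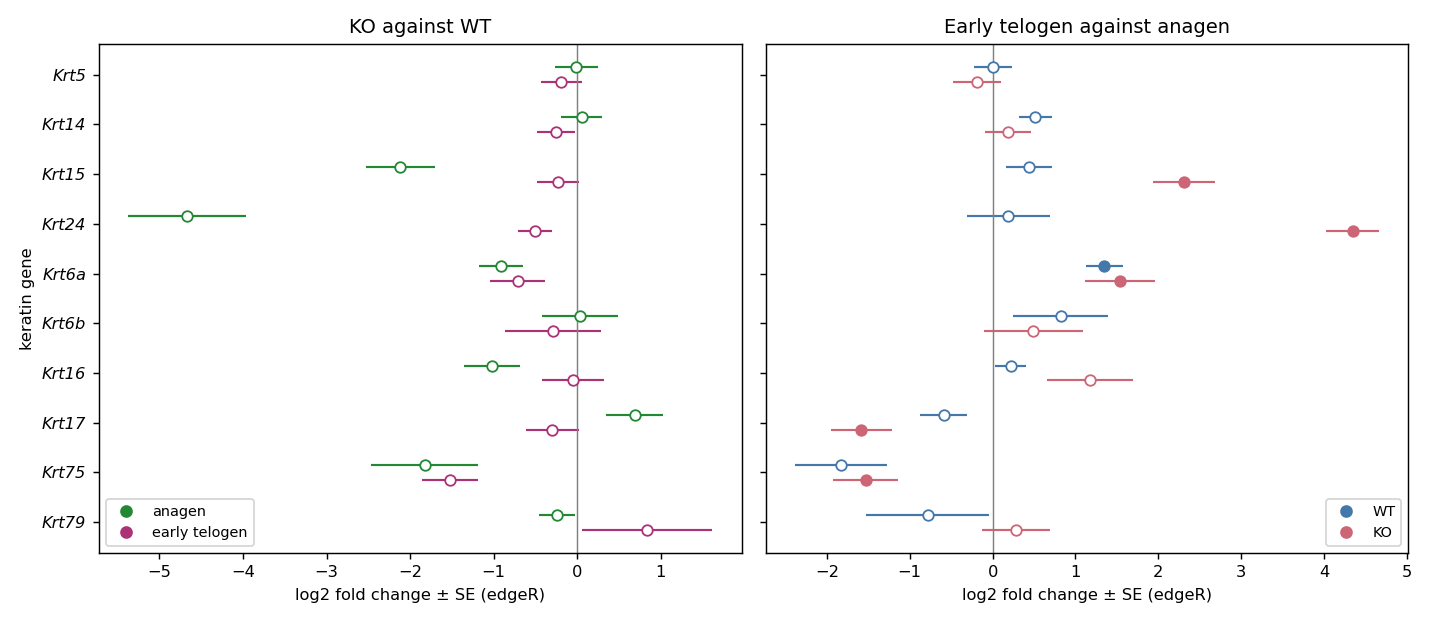
Log2 fold change with SE (x axis) of each keratin (y axis) for KO against WT in anagen and early telogen (left) and for early telogen against anagen in WT and KO (right), with filled points for an edgeR adjusted p under 0.05. No point on the left is filled, and on the right 1 WT point (Krt6a) and 5 KO points (Krt15, Krt24, Krt6a, Krt17 and Krt75) are filled.

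The comparison of early telogen with anagen asks how keratin levels differ between rest and growth within a genotype. Stage and deposited table cannot be told apart, and the early telogen libraries were less deep. In WT cells, Krt6a of the inner bulge and companion layer was higher in early telogen, at 3742 to 5022 CPM against 1420 to 2144 CPM, a rise of 1.35 ± 0.23 on the log2 scale (edgeR adjusted p = 0.00335). This was 1 of 10 keratins, beside 29.5% of 12718 genes called in either direction (13.6% higher, 15.9% lower). Krt75 was at 10.9 to 16.5 CPM in early telogen against 25.9 to 91.7 CPM in anagen (log2 fold change -1.83 ± 0.56, edgeR adjusted p = 0.0511), a value that passed without any 1 anagen WT replicate (edgeR adjusted p of 0.0266 to 0.0456), with a log2 fold change of -0.96 without replicate 2. Krt14 was at 8734 to 9574 CPM against 6231 to 7650 CPM, without overlap (0.51 ± 0.20, edgeR adjusted p = 0.0797), and was called without anagen WT replicate 3 (0.61, edgeR adjusted p = 0.0452). Krt14 and Krt6a were the 2 of 10 keratins higher without overlap, beside 16.6% of genes, and Krt75 the 1 lower, beside 31.9%. Krt5 (0.00 ± 0.23), Krt15 (0.44 ± 0.27), Krt24 (0.19 ± 0.50) and Krt16 (0.22 ± 0.19) did not pass. Markers of other cells moved with stage too. In WT, 10 of 13 tested inner root sheath and hair shaft markers fell from anagen to early telogen, their sum over 15 being 231 to 339 CPM in anagen and 121 to 142 CPM in early telogen. The 8 upper follicle markers, Krt79 among them, summed to 523 to 656 CPM and 120 to 414 CPM but were divided. Of these 8, 1 was called higher and 2 lower, with 3 positive and 5 negative log2 fold changes. Lrig1 fell from 196 to 60.7 CPM in the mean. The Lgr6 mean rose from 17.4 to 23.2 CPM, but its groups overlapped (10.9 to 20.8 CPM in anagen, 17.8 to 29.9 CPM in early telogen). The part of these markers in the keratin values was not tested. Anagen WT replicate 2 had the highest Krt24 of all libraries, and without it Krt24 was called higher in early telogen (log2 fold change 1.0, edgeR adjusted p = 0.0142).

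In KO cells 5 of 10 keratins differed between the stages, beside 22.2% of 12771 genes (10.2% higher, 12% lower), and 4 lay higher and 2 lower without overlap, beside 19.8% and 25% of genes. Krt24 rose by 4.35 ± 0.32 on the log2 scale from anagen to early telogen (edgeR adjusted p = 1.81e-05) and Krt15 by 2.31 ± 0.37 (edgeR adjusted p = 0.00193), and both calls held without each of the 6 libraries. Krt6a rose by 1.54 ± 0.43 (edgeR adjusted p = 0.0273). Krt17 fell by 1.59 (SE 0.37, edgeR adjusted p = 0.0123), from 10708 and 6814 CPM to 1941 to 4104 CPM, and Krt75 fell by 1.53 (SE 0.39, edgeR adjusted p = 0.0192). The Krt6a call was lost without anagen KO replicate 1 (edgeR adjusted p = 0.0996) or 2 (0.139) or early telogen KO replicate 5 (0.0554) or 1 (0.0510), the Krt17 call without anagen KO replicate 1 (0.0860) and the Krt75 call without anagen KO replicate 2 (0.237). Krt16 was called higher without early telogen KO replicate 2 (log2 fold change 1.47, edgeR adjusted p = 0.0111). In the same KO libraries 5 of 10 epidermal markers rose and 1 fell from anagen to early telogen, with sums of 750 and 1265 CPM in anagen and 2097 to 6979 CPM in early telogen. The 6 fibroblast markers summed to 364 and 690 CPM in anagen and 463 to 4975 CPM in early telogen, and the 6 endothelial markers to 6.92 and 11.1 CPM and to 17.1 to 32.5 CPM. The part of these cells in the KO stage differences was not tested. Whether the stage difference itself differed between KO and WT is the contrast given above, which passed for Krt24 and not for Krt15 or Krt17.

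To see which keratins had similar deviations within a stage, each library's log2 CPM was taken as its deviation from the stage mean. Then 2 genes were compared by the root mean square difference of these deviations over the 12 libraries. This measure is also small for 2 genes that both vary little. The SD within stage was smallest for Krt14 (0.15) and Krt5 (0.29), and largest for Krt24 (1.58), Krt79 (1.03), Krt75 (0.96), Krt15 (0.81) and Krt16 (0.59). Among the keratin pairs, Krt6a and Krt16 (0.38), a type II and a type I chain known to pair, were close. The basal pair Krt5 and Krt14 (0.32) was close too, but both varied little, so this does not show that they varied together. Early telogen KO replicate 2 held the highest Krt5 (15477 CPM) and the lowest Krt14 (7572 CPM) of its stage. Krt5 and Krt6b were nominally closest (0.31), with Krt6b known from few counts. Of 10080 other genes at 5 CPM or more in some group, Gfra1 (0.35), Chat (0.40) and Col6a1 (0.46) were nearest to Krt24, and Gfra1 was at 7.96 CPM in anagen KO and 144 CPM in anagen WT in the mean. Anxa8 (0.21), Slc25a23 (0.21) and Dap (0.22) were nearest to Krt15, Nrep (0.29), Dap (0.42) and Cry1 (0.44) to Krt75, and Ehd1 (0.22), Rab8b (0.25) and Ncs1 (0.25) to Krt16. Defb6 (0.22), Flt1 (0.33) and Csf2rb2 (0.40) were nearest to Krt79, and Defb6 was at 1.02 CPM in early telogen WT replicate 3, against 6.57 CPM or more in the other early telogen libraries. Flt1 and Csf2rb2 were at 0.742 and 0.834 CPM in that replicate. Krt79 and these 3 genes all had their lowest deviation there (-2.66 for Krt79). The SD of Krt79 and these likenesses therefore rest in large part on 1 library. These likenesses are descriptions over libraries that share their tables and groups. The nearest genes were picked by these same deviations, so a shared low in anagen KO is no separate result.

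**Figure D5:**
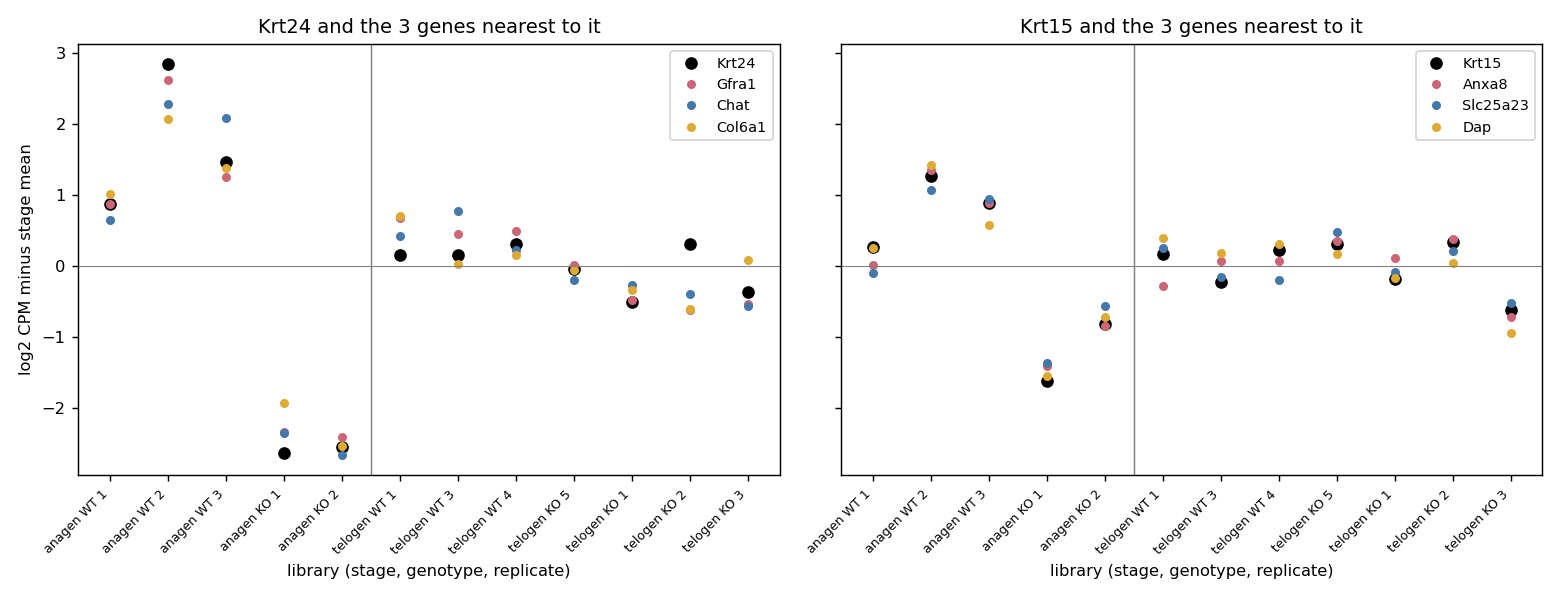
Log2 CPM minus the stage mean (y axis) in each of the 12 libraries (x axis), for Krt24 (left) and Krt15 (right) with the 3 genes nearest to each. In anagen all 4 genes of each panel lie lowest in the 2 KO libraries, and in early telogen Krt15 and its neighbours lie within 1 log2 unit of the stage mean. The neighbours were picked by these same values, so their likeness to the keratin is no separate result.

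Other genes of the keratin system were counted from 3 lists. Of 17 other epithelial keratins, 11 were tested in early telogen and Krt80, a type II keratin, was lower in KO (124 ± 30.1 CPM, n = 4, against 196 ± 16.7 CPM, n = 3, log2 fold change -0.85, edgeR adjusted p = 0.0493), while 10 did not pass, 1 of 11 called lower beside 0.457% of all genes. The Krt80 call was lost without KO replicate 1, 3 or 5 or any 1 WT replicate (edgeR adjusted p of 0.0636 to 0.273) and held without KO replicate 2 (0.0279). In anagen 0 of 13 passed, beside 0% of all genes, with Krt80 at -2.55 ± 0.57 (edgeR adjusted p = 0.217). Krt8 and Krt18, the pair of simple epithelia, were lower in early telogen than in anagen in both WT (-1.84 and -3.55) and KO (-2.60 and -2.95), and Krt80 was higher in both (1.32 and 3.01). Krt18 was near the floor in early telogen, with 10 counts summed over the 3 WT libraries (0.714 CPM or less) and 49 over the 4 KO libraries. The WT calls of Krt8 and Krt80 were each lost without any 1 WT library other than anagen replicate 2, and that of Krt18 without anagen WT replicate 1 or early telogen WT replicate 4, with edgeR adjusted p of 0.0564 and 0.0687 for Krt18. Of 13 genes that anchor keratin filaments to desmosomes and hemidesmosomes, 7 were tested in early telogen and 12 in anagen, and none passed between KO and WT, beside 0.956% and 0% of all genes. The anchors not tested in early telogen were absent by name from its deposited counts, and were not left out for low counts. Among them were Plec, at 312 ± 66.5 CPM in anagen WT (n = 3), and Pkp1, at 548 ± 55.5 CPM. The median log2 fold change was -0.61 over the 7 anchors tested in early telogen and -0.40 over the 12 tested in anagen. All genes tested had medians of 0.03 and 0.02. The 2 anchor medians cover different sets of genes and cannot be compared with each other. The desmosomal plakin Dsp was at -0.73 ± 0.21 in early telogen, and the cornified envelope plakin Evpl at -1.33 ± 0.18 in anagen (edgeR adjusted p = 0.0653). Between the stages 5 of 7 anchors rose in WT and 2 of 7 in KO from anagen to early telogen, beside 13.6% and 10.2% of all genes called higher, and Evpl (1.49 and 2.41) and Dsp (1.63 and 1.14) rose in both, the KO call of Dsp being lost without anagen KO replicate 1 or 2 (edgeR adjusted p of 0.0652 and 0.171). Of 14 regulators of basal and follicle keratins none passed between KO and WT in either stage, beside 0% of all genes in anagen and 0.956% in early telogen. Ovol1, a transcription factor of differentiating epithelium, was at -0.95 ± 0.31 in anagen and -1.14 ± 0.31 in early telogen. The Ovol1 value was -1.58 without anagen KO replicate 1, -0.52 without anagen KO replicate 2 and -0.71 without early telogen WT replicate 3. Between the stages 6 of 14 regulators rose and 1 fell in WT, and 3 rose and 2 fell in KO, beside 13.6% of all genes higher and 15.9% lower in WT and 10.2% and 12% in KO, so the counts of regulators that fell were near or below the share of all genes. Klf5, a transcription factor of basal keratinocytes, rose in both (1.27 and 1.70), and Tcf7l1, a factor of resting bulge cells, fell in both (-0.76 and -1.0). The Tcf7l1 call was lost in WT without anagen replicate 3 or early telogen replicate 1 or 4 (edgeR adjusted p of 0.0796 to 0.0886), and in KO without anagen replicate 2 (0.169) or early telogen replicate 5 (0.0520).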

How the data were processed

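The deposited tables hold raw read counts per gene, which the authors made with TopHat2, the mm10 genome and HTSeq per the submitters' processing notes, and versions, strand option and annotation release are not given in the sources used here. For early telogen, 3 broken lines were left out. Each comparison was fitted on all genes of its table (the 37931 shared names where both tables were used) with edgeR 4.0.16 in R 4.3.3 (TMM, filterByExpr with minimum count 10 and minimum total 15, robust quasi-likelihood F-test, Benjamini-Hochberg adjustment over all genes tested, threshold 0.05), and the scripts were tested on simulated data. The SE is the log2 fold change over the square root of F. DESeq2 1.42.0, other scalings, no filter, sex, blocks and left-out libraries were alternatives. No 2 libraries of a group agreed within sampling noise. The keratins and lists were chosen with earlier results of these data known. Of the lists, genes were named that passed (at most 4 of smallest p in a comparison), otherwise 2 of smallest p (not all of these are printed), and the 3 nearest genes for the 5 keratins of largest SD within stage.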

Additional observations from a re-analysis of the deposited data

Results flagged for a closer look

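Krt75 in early telogen KO replicate 3 stood apart, at 2.83 CPM against 5.86 to 6.39 CPM in the other 3 KO libraries, which lay close together. It was 1 of 10 keratins examined in this group of 4, and chance marks about 1 group in 20 in this way. Without this library the log2 fold change of Krt75 in early telogen was -1.33 (edgeR adjusted p = 0.0692).

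The KO effect on Krt24 differed between the stages: its log2 fold change was higher by 4.15 in early telogen (edgeR adjusted p = 0.0229). Krt24 was lower in KO in 2 of 2 anagen libraries, and in early telogen 3 of 4 KO libraries lay below all WT libraries.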

How the results depend on the processing

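The number of keratins called moved with the settings, and the share of all genes called is given after each. For KO against WT in anagen 0 were called (0% of genes), and 4 with DESeq2 (3.56%), 1 without a filter (1.38%), 2 with all 12 libraries in 1 fit (1.17%) and 2 with the day in the title as a replicate block (1.76%). In early telogen 0 were called (0.956%), and 1 with DESeq2 (3.09%), with RLE size factors (0.964%) and without a filter (1.85%), and 0 with the replicate number as a replicate block (0.0914%). Each block fit had 1 residual degree of freedom. The correlations of deviations were 0.414 and 0.359 for anagen KO and WT libraries of the same title day (29 and 31). They were 0.106 and 0.0532 for early telogen libraries of the same replicate number (1 and 3). The labels do not say that these days or numbers mark shared litters or animals. For early telogen against anagen in WT 1 was called (29.5%), and 3 with DESeq2 (30.1%), 2 with library totals only (29.4%), 2 without a filter (19.7%) and 2 with all 12 libraries (27.1%). For the difference of the KO effect 1 was called (0.144%), and 2 with DESeq2 (1.16%) or without a filter (1.83%), 0 without KO replicate 2 and WT replicate 3 of early telogen, whose marker sums stand apart (0%), and 0 without the 2 libraries whose title and age label differ (0.046%), the last 2 chosen after seeing the data. Fits without 1 library are counted here where 2 or more libraries stayed in each group. For KO against WT they gave 0 to 1 in anagen (0% to 0.671% of genes) and 0 in early telogen (0.152% to 1.1%). For the stages they gave 1 to 3 in WT (16.8% to 27.4%) and at most 6 in KO (5 with all). That 6 came without early telogen KO replicate 2 (29.2%), and the share was 16.7% to 17% without another early telogen KO library. For the difference of the KO effect they gave 0 to 1 (0.0152% to 0.418%). The causes were not tested.

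Log2 fold changes near 0 changed sign. In anagen Krt5 became 0.081 with library totals only, 0.10 with the day block and 0.30 with the sex covariate, and Krt14 -0.0076 with the day block. In early telogen Krt5 became 0.0017 and Krt16 0.069 with totals only, Krt6b 0.086 and Krt16 0.26 with the replicate block, and Krt16 0.20 and Krt17 0.17 without the 2 libraries of marker sums apart. Between the stages in WT, Krt5 became -0.13 with totals only and -0.055 without a filter, and Krt6a in the difference of the KO effect became -0.022 without the 2 libraries of differing labels. With 1 library left out, the ranges that crossed 0 were -0.15 to 0.087 for Krt5, -0.12 to 0.20 for Krt14 and -0.14 to 0.23 for Krt6b in anagen, -0.63 to 0.0013 for Krt6b and -0.34 to 0.23 for Krt16 in early telogen, -0.15 to 0.11 for Krt5 and -0.14 to 0.998 for Krt24 between the stages in WT, -0.012 to 0.54 for Krt79 in KO, and -0.10 to 0.42 for Krt6a and -0.59 to 0.68 for Krt75 in the difference of the KO effect. Depth limits Krt6b (4 to 56 counts) and Krt75 in early telogen (17 to 128 counts).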
